A study of Homo sapiens with 12 samples.

Results

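The genes described here are 39 of the 58302 genes counted in a study of acquired resistance to TEAD inhibition: the transcription factor NRF2 (gene NFE2L2), its regulators KEAP1 and SQSTM1, and enzymes of the glutathione and thioredoxin systems, ferritins and other detoxifying proteins. They were chosen by symbol, from a list of NRF2 and glutathione antioxidant genes, and matched to the Ensembl identifiers of the count table. All 39 symbols were found, and 36 passed the filter on low counts and were tested. The cells were NCI-H226, an NF2-null human mesothelioma line, and 1 resistant line derived from it, NCI-H226_CL3. GNE-7883 blocks TEAD, the transcription factors that YAP and TAZ act through. RNA sequencing covered 4 groups of 3 libraries: resistant cells in GNE-7883, resistant cells in the vehicle DMSO, sensitive parental cells in GNE-7883, and sensitive parental cells in DMSO. The labels name NF2 loss for both lines. Resistance was selected by growth in rising inhibitor concentrations, 0.25 to 3 µM, and neither dose nor length of the last incubation is stated in the labels.

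NRF2 is a transcription factor that KEAP1 holds in the cytoplasm and marks for degradation. When oxidants or electrophiles modify KEAP1, or when the autophagy receptor p62 (SQSTM1) sequesters it, NRF2 enters the nucleus, pairs with small MAF proteins and binds antioxidant response elements near its target genes. The targets make glutathione, regenerate it and thioredoxin with NADPH, store iron in ferritin and detoxify quinones, carbonyls and epoxides. NRF2 is controlled largely at the protein level, so its mRNA level is not a measure of its activity.

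Total counts were 35737227 to 46962645 in the resistant GNE-7883 libraries, 31878934 to 45178434 in resistant DMSO, 34035917 to 38708770 in sensitive GNE-7883 and 37728690 to 44744884 in sensitive DMSO. The 39 genes together took 0.981% to 1.01%, 1% to 1.06%, 1.2% to 1.26% and 1.11% to 1.27% of these counts, in the same order of groups. All 12 mesothelial markers checked passed the filter on low counts, although HP had only 10 counts over the resistant GNE-7883 libraries and 2 over the resistant DMSO libraries. Their summed level was 1758 to 1875 CPM (counts scaled to library size) in resistant GNE-7883, 1373 to 1477 in resistant DMSO, 4210.4 to 4399 in sensitive GNE-7883 and 2965 to 3238 in sensitive DMSO. Of 11 blood cell markers 3 passed the filter, CD3E, MS4A1 and CD68 had no count in any library, and the sums were 0.928 to 1.38, 0.779 to 1.14, 6.52 to 7.19 and 2.5 to 3.59 CPM in these groups. Of 7 endothelial markers 4 passed, with sums of 32.2 to 35.3, 22.9 to 24.2, 180.4 to 196 and 49.4 to 63.8 CPM. Of 8 alveolar and airway markers 3 passed, with sums of 2.33 to 6.46 CPM over all libraries. The 9 epithelial markers (6 passed) summed to 6663 to 7592 CPM in resistant GNE-7883, 5739.5 to 6927 in resistant DMSO, 7949.8 to 8187 in sensitive GNE-7883 and 12189 to 15045 in sensitive DMSO. Nearly all of this sum was keratin: KRT7, KRT8, KRT18 and KRT19 averaged 4205, 2604, 3939 and 2402 CPM in sensitive DMSO. CDH1 and CLDN4 averaged at most 3.56 and 1.88 CPM in any group, and EPCAM, CLDN3 and CLDN7 stayed under 1 CPM in every library. The 9 mesenchymal markers (8 passed) summed to 3344 to 3441, 3319 to 3438, 2227 to 2300.0 and 2379 to 2541 CPM, in the same order of groups. Mitochondrial transcripts took 0.614% to 0.693%, 0.561% to 0.685%, 0.954% to 1.09% and 0.522% to 0.622% of counts, so that sensitive GNE-7883 was the highest group. The TEAD target CCN2 fell to 8.49 ± 0.299 CPM in sensitive cells with GNE-7883, against 64.3 ± 0.934 CPM in DMSO, and to 69.3 ± 1.61 CPM in resistant cells with GNE-7883, against 102 ± 4.27 CPM in DMSO (SD, n = 3 each). Sensitive DMSO replicate 2 stood apart. Its counts differed from those of replicates 1 and 3 with a chi-square of 35.7 and 41.2 per degree of freedom, against 3.13 between replicates 1 and 3 and 3.28 to 10.3 within the other groups.

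In sensitive cells 25 of these genes passed the test with GNE-7883, some up and some down, and in resistant cells 5 did. With the drug, 15 of the 36 rose and 10 fell in sensitive cells, beside 29.8% and 28.4% of all 18035 genes tested. The ferritin heavy chain FTH1, the epoxide hydrolase EPHX1, catalase (CAT), OSGIN1, SQSTM1, glutathione reductase (GSR) and NQO1 were among those that rose, and peroxiredoxin 6 (PRDX6) fell most among those above 5 CPM. In resistant cells 2 rose (GPX4 and EPHX1) and 3 fell (GCLC, TXNRD1 and PRDX6), beside 5.25% and 3.97% of all genes. Among the 31 of these genes with a mean of at least 5 CPM, 12 rose and 10 fell in sensitive cells, beside 31.9% and 36.7% of the 10859 tested genes at that level. In resistant cells 2 of the 31 rose and 3 fell, beside 7.39% and 5.51%. In either direction, 71% of the 31 were called in sensitive cells and 16.1% in resistant cells, near the 68.6% and 12.9% of all genes at that level. The resistant counts over the 36 genes depended on single libraries: 1 rose without resistant DMSO replicate 1 or 3 or resistant GNE-7883 replicate 1 or 3. Likewise 1 fell without resistant DMSO replicate 3 or resistant GNE-7883 replicate 2 or 3, and edgeR called 0 lower without resistant GNE-7883 replicate 1 (5 at an unadjusted p under 0.05). The mesothelial, endothelial and blood cell marker sums and the mitochondrial share were highest in sensitive GNE-7883. The epithelial marker sum was lower there than in sensitive DMSO. Of the 12 mesothelial markers, 9 were called higher and 2 lower with the drug in sensitive cells. The endothelial and blood cell sums rest on few genes: 5 of 7 and 10 of 11 markers stayed under 1 CPM in every library. The part of these measures in the drug result was not tested. A gene is called, and said to have risen or fallen, at a Benjamini-Hochberg adjusted p under 0.05 in edgeR's quasi-likelihood test over all genes tested. Levels are CPM scaled by the TMM method, and changes are log2 fold changes ± SE. Whether replicate libraries were grown as separate cultures is not stated in the labels, so the p-values reflect the spread among these libraries alone, possibly only technical spread.

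Between the lines, the antioxidant genes were mostly lower in resistant cells. In DMSO, 22 of the 36 were lower in resistant than in sensitive cells and 5 were higher, beside 24.4% and 24.2% of all genes tested. In GNE-7883, 24 were lower and 4 higher, beside 31.1% and 30.7% of all genes. The median of the 36 log2 differences was -0.33 in DMSO and -0.48 in GNE-7883, against -0.00 and -0.01 over all genes tested. Among the 31 of these genes with a mean of at least 5 CPM, 20 were lower and 4 higher in DMSO, beside 27.6% and 30.3% of the 10859 genes at that level. In GNE-7883, 20 of the 31 were lower and 3 higher, beside 31.9% and 39.2%. In bulk RNA, fewer cells with a transcript and less of it per cell cannot be told apart, and with 1 resistant line the comparisons set these 2 cell populations against each other. The mesothelial and epithelial marker sums given above were also lower, and the mesenchymal sum higher, in the resistant groups. Of the 12 mesothelial markers tested, 10 were called lower and 1 higher in each condition. For the 6 epithelial markers tested the calls were 5 lower and 1 higher in DMSO, but 2 lower and 1 higher in GNE-7883. Of the 8 mesenchymal markers tested, however, 3 were called higher and 3 lower in each condition. VIM alone averaged 1875 CPM in resistant GNE-7883 and 2064 in resistant DMSO, against 606 in sensitive GNE-7883 and 847 in sensitive DMSO. The part of these markers in the result was not tested. A drug comparison and a line comparison share libraries, so values from them are given side by side and not as independent evidence.

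The drug responses of the lines differed for 20 of the 36 genes: 7 had a higher response in resistant cells and 13 a lower one, beside 19.0% and 16.7% of all genes tested (35.7% in either direction). On leaving out 1 library the count of higher responses was 4 to 9, the 4 without sensitive GNE-7883 replicate 1 or 3. Among the 31 of these genes with a mean of at least 5 CPM, 7 had a higher and 11 a lower resistant response. These were 22.6% and 35.5%, beside 26.5% and 20.1% of the 10859 genes at that level. In either direction the shares were 58.1% and 46.6%. Lower responses were thus more frequent than among all genes at that level, and higher responses were not. Measured by the median over the 36 genes, the log2 response was 0.02 in resistant cells and 0.10 in sensitive cells, against -0.00 and 0.02 over all genes.

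**Figure D1:**
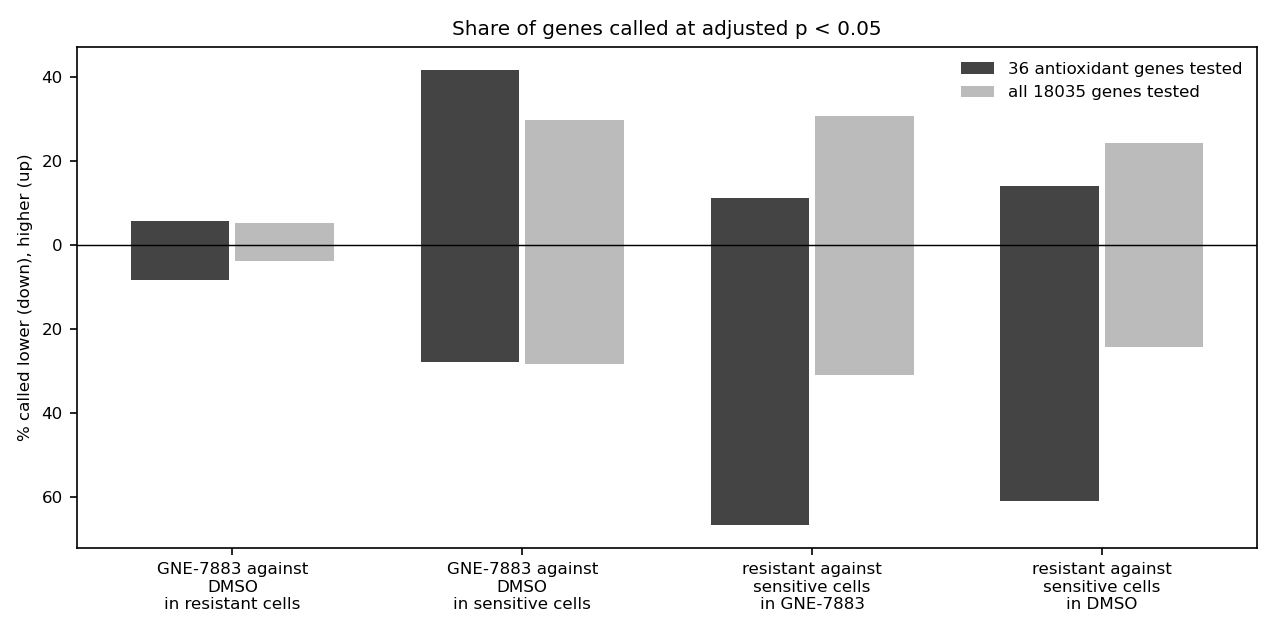
Share of genes called at an adjusted p under 0.05, in % (vertical axis; higher calls drawn upward, lower calls downward), for the 36 antioxidant genes (dark bars) and all 18035 genes tested (light bars) in 4 comparisons. The dark bars reach 61.1% and 66.7% lower in resistant against sensitive cells (DMSO and GNE-7883), where the light bars reach 24.4% and 31.1%.

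Per kilobase of transcript (RPKM) the levels of these genes ranged widely. The ferritin light chain FTL was the most abundant, with mean RPKM of 2671 in resistant GNE-7883, 2770.2 in resistant DMSO, 4165 in sensitive GNE-7883 and 3929.7 in sensitive DMSO. Thioredoxin reductase 1 (TXNRD1) had 591, 682, 388 and 474 RPKM in the same groups. At the low end the aldo-keto reductase AKR1B10 had 0.138, 0.12, 0.534 and 0.156 RPKM. AKR1B10, GPX3, MGST2 and the aldehyde dehydrogenase ALDH3A1 stayed under 2 RPKM in every group, so their changes rest on few reads.

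**Figure D2:**
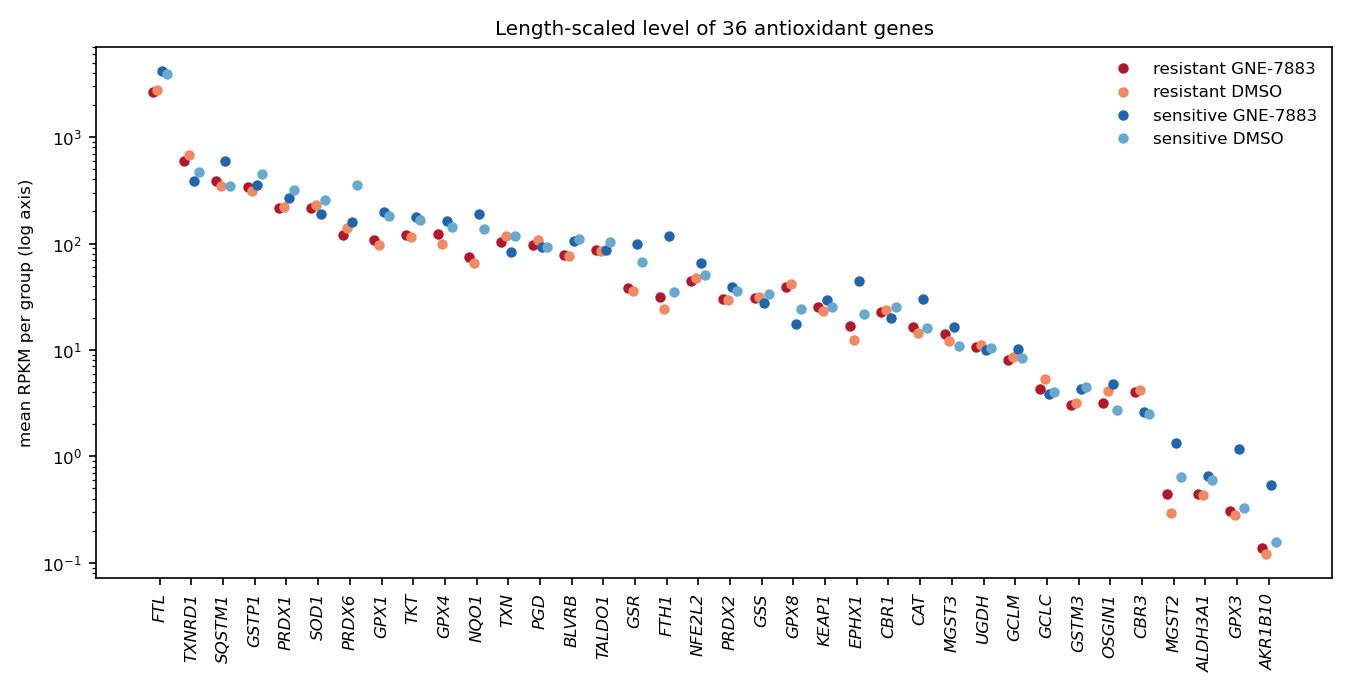
Mean RPKM per group (log axis) of the 36 genes tested, ordered by level, with 1 point for each of the 4 groups. FTL lies highest, at 2671 to 4165 RPKM, and AKR1B10 lowest, at 0.12 to 0.534 RPKM.

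The 3 genes that were not tested had few or no counts in each library. GPX2, a gut-type glutathione peroxidase, had at most 0.161 CPM in any library, and the microsomal transferase MGST1 had 3 counts in all resistant GNE-7883 libraries and a count of 0 in each of the other 9 libraries. A count of 0 allows up to 0.0639 to 0.0941 CPM, depending on the library, by counting error only. The sulfiredoxin gene SRXN1 had 0.0821 to 0.345 CPM. In the GENCODE annotation 85% of its exon bases also belong to a second gene on the same strand, AL121758.1, which was also counted near 0, so its low count cannot be read as absence.

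Antioxidant response elements share the core TGACNNNGC, and promoter sequences from RefSeq (GRCh38.p14, 250 bases before to 50 after a transcript start) were found for 29 of the 39 genes. The core was present on either strand in 9 of these 29 genes (31%) and in 10 of their 40 windows (25%), against 16.1% of 27305 genes and 13.3% of 35116 windows in the whole table. The last 100 bases before the start are shown for the 5 genes with a match there, because the genes that carry it moved in different directions with the drug. Capitals mark the core or its reverse complement, and position -1 is the base before the start.
EPHX1: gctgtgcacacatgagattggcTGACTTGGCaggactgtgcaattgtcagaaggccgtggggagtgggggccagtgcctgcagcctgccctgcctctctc
GCLM: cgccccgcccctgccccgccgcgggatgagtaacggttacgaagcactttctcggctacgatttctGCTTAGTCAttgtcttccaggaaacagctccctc
KEAP1: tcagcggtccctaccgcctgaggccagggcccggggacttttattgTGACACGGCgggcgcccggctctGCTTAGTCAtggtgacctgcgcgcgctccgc
GSTP1: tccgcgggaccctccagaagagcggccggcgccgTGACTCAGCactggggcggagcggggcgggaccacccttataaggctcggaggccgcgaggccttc
TXNRD1: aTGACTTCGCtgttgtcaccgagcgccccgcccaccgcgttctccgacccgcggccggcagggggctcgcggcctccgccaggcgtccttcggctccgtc
These are chr1:225825254-225825353 on the plus strand for EPHX1 (1 of its 3 listed starts), chr1:93909431-93909530 on the minus strand for GCLM, chr19:10502772-10502871 on the minus strand for KEAP1, chr11:67583712-67583811 on the plus strand for GSTP1 and chr12:104215679-104215778 on the plus strand for TXNRD1. The matches begin at -78 in EPHX1, -34 in GCLM, -54 and -31 in KEAP1, -66 in GSTP1 and -99 in TXNRD1. A second TXNRD1 match begins at -8 and runs past the start, so it is not wholly shown and stays in lower case. KEAP1 has a second listed start with no match in its window, and TXNRD1 a second start whose match begins at -102. EPHX1, GCLM and KEAP1 rose with GNE-7883 in sensitive cells, and GSTP1 and TXNRD1 fell. The other genes with a match in the wider window were CBR1, GPX2, MGST1 and PGD. A match is a description of letters, not evidence of binding.

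All 3 regulators rose with GNE-7883 in sensitive cells and were lower in resistant than in sensitive cells under the drug. NFE2L2 (chr2:177227595-177392697, minus strand, GRCh38) had 189, 199.8 and 199.7 CPM in resistant GNE-7883 libraries and 210.1, 199 and 214 CPM in resistant DMSO. It had 297, 316 and 301 CPM in sensitive GNE-7883 libraries and 233, 231 and 237 CPM in sensitive DMSO. Every sensitive GNE-7883 library thus lay above every other library, and the resistant groups overlapped each other. With the drug the log2 change was 0.38 ± 0.05 in sensitive cells (adjusted p = 7.89e-06) and -0.08 ± 0.05 in resistant cells (adjusted p = 0.381), and the responses differed by -0.46 ± 0.071 (adjusted p = 0.000104). Resistant cells were lower by -0.17 ± 0.05 in DMSO (adjusted p = 0.00947) and by -0.63 ± 0.05 in GNE-7883 (adjusted p = 1.72e-08). The call in DMSO was lost without resistant DMSO replicate 2 (adjusted p = 0.0523) and with counts scaled by library totals alone (-0.10, adjusted p = 0.127). In GENCODE 20.9% of its exon bases overlap other genes.

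KEAP1, the adaptor that targets NRF2 for ubiquitination, was highest in the sensitive cells given the drug. It had 82.3, 72.3 and 78.7 CPM in resistant GNE-7883 and 71.6, 77.5 and 65.9 CPM in resistant DMSO, against 92.9, 93.5 and 100.2 CPM in sensitive GNE-7883 and 77.4, 89.6 and 78.6 CPM in sensitive DMSO. The sensitive GNE-7883 libraries were the 3 highest, and the other 3 groups overlapped. With the drug KEAP1 rose in sensitive cells by 0.22 ± 0.075 (adjusted p = 0.0184), and in resistant cells the change was 0.12 ± 0.075 (adjusted p = 0.404). The rise was lost without sensitive DMSO replicate 1 or 3 or sensitive GNE-7883 replicate 3 (adjusted p = 0.0637 to 0.0721). Under the drug it was lower in resistant cells by -0.30 ± 0.075 (adjusted p = 0.00269). In DMSO the difference of -0.19 ± 0.075 (adjusted p = 0.0456) was no longer called without sensitive DMSO replicate 2 or resistant DMSO replicate 1 or 3 (adjusted p = 0.07 to 0.141), nor with library totals alone (adjusted p = 0.21).

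SQSTM1, the autophagy receptor that binds KEAP1, had the largest rise of the regulators. Its levels were 1367, 1224 and 1344 CPM in resistant GNE-7883 and 1160.2, 1296 and 1092 CPM in resistant DMSO. They were 2096, 2169 and 2134 CPM in sensitive GNE-7883 and 1191, 1301 and 1187 CPM in sensitive DMSO. In DMSO the lines overlapped (-0.05 ± 0.064, adjusted p = 0.535), while under the drug the sensitive libraries stood clear of all others. The drug change was 0.80 ± 0.064 in sensitive cells (adjusted p = 3.11e-08) and 0.15 ± 0.064 in resistant cells (adjusted p = 0.179), a difference of -0.65 ± 0.09 (adjusted p = 4.24e-05). The resistant change was called without resistant DMSO replicate 2 (0.22, adjusted p = 0.0311).

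**Figure D3:**
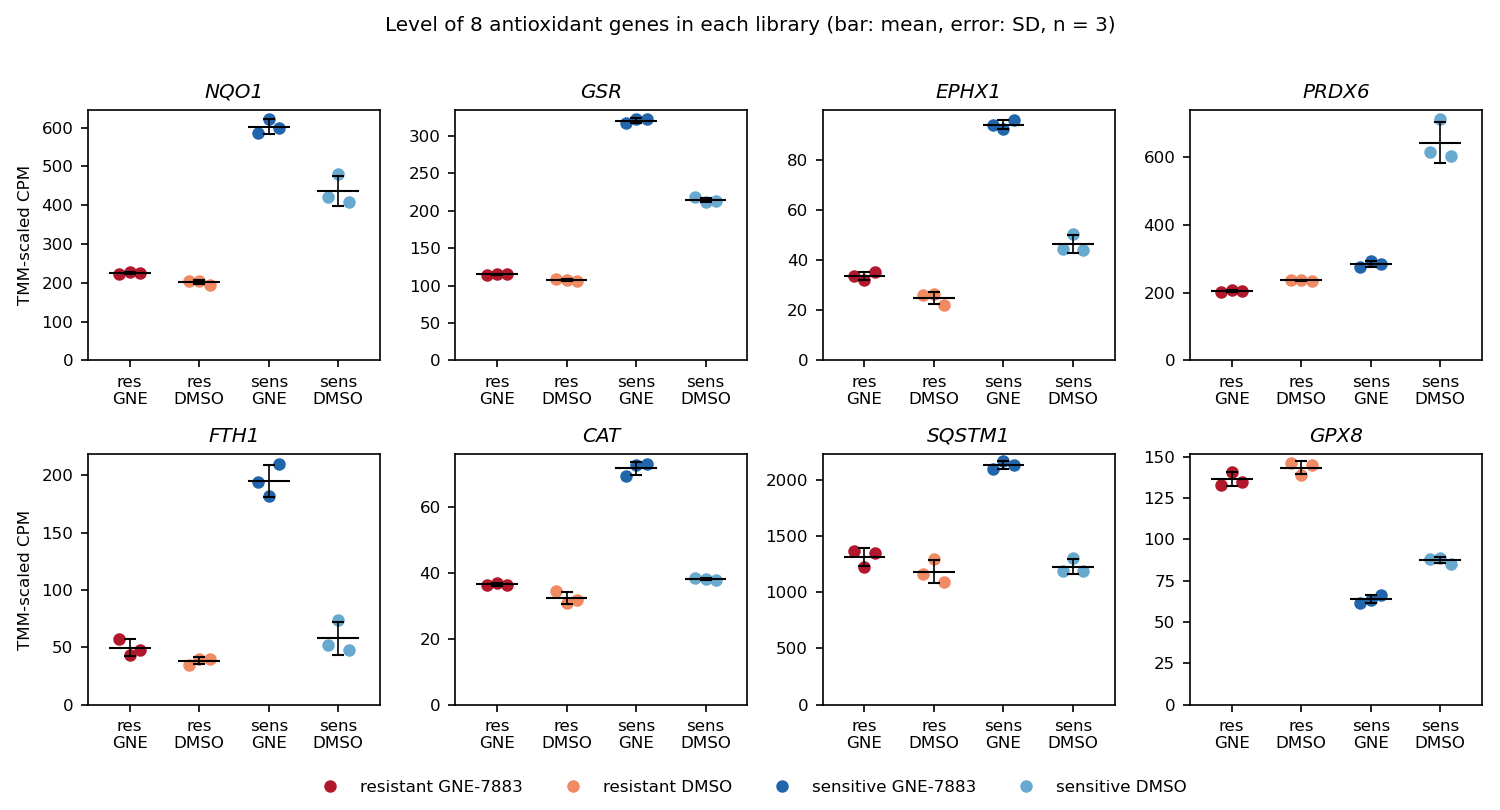
TMM-scaled CPM (vertical axes, from 0) of NQO1, GSR, EPHX1, PRDX6, FTH1, CAT, SQSTM1 and GPX8 in each of the 12 libraries, with the mean and SD of each group (n = 3). The sensitive GNE-7883 libraries are the 3 highest for NQO1, GSR, EPHX1, FTH1, CAT and SQSTM1. For NQO1, GSR, EPHX1, PRDX6 and CAT both sensitive groups lie above both resistant groups, and GPX8 runs the other way.

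Of the 4 genes that make or regenerate glutathione, GCLM and GSR rose and GSS fell with the drug in sensitive cells, and GCLC fell in resistant cells. GSR (chr8:30678061-30727999, minus strand) returns oxidised glutathione to its reduced form with NADPH. It had 114, 115 and 116 CPM in resistant GNE-7883 and 109, 108 and 106 CPM in resistant DMSO, against 317, 322 and 322 CPM in sensitive GNE-7883 and 218, 212 and 213 CPM in sensitive DMSO. Every resistant library lay below every sensitive one, at 2.78-fold lower means under the drug and 1.99-fold lower means in DMSO. The differences were -1.48 ± 0.046 in GNE-7883 (adjusted p = 2.19e-13) and -0.99 ± 0.045 in DMSO (adjusted p = 4.38e-11). GSR rose with the drug in sensitive cells by 0.58 ± 0.045 (adjusted p = 1.94e-08), and its change in resistant cells was 0.09 ± 0.045 (adjusted p = 0.238). These responses differed by -0.48 ± 0.063 (adjusted p = 2.3e-05).

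The 2 subunits of glutamate-cysteine ligase, the rate-limiting enzyme of glutathione synthesis, did not move together. The catalytic subunit GCLC had 20, 21.8 and 21.2 CPM in resistant GNE-7883 and 26.6, 25.6 and 26.3 CPM in resistant DMSO, against 19.8, 19.5 and 21.1 CPM in sensitive GNE-7883 and 20.6, 19.6 and 21.9 CPM in sensitive DMSO. The resistant DMSO libraries were the 3 highest and the other groups overlapped. GCLC fell with the drug in resistant cells by -0.32 ± 0.065 (adjusted p = 0.00582; 0.0503 without resistant GNE-7883 replicate 1), and the sensitive change was -0.04 ± 0.066 (adjusted p = 0.628). It was higher in resistant than in sensitive cells in DMSO by 0.34 ± 0.065 (adjusted p = 0.000442), and in GNE-7883 the difference was 0.06 ± 0.066 (adjusted p = 0.427).

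The modifier subunit GCLM, whose promoter carries the core at -34, had 37.8, 37.8 and 40.2 CPM in resistant GNE-7883 and 42.5, 39.9 and 41.8 CPM in resistant DMSO. It had 51.9, 51.5 and 52.8 CPM in sensitive GNE-7883, above every other library, and 43.7, 37.6 and 44.5 CPM in sensitive DMSO. It rose in sensitive cells by 0.31 ± 0.066 (adjusted p = 0.000717), beside -0.10 ± 0.066 in resistant cells (adjusted p = 0.417). Under the drug resistant cells were lower by -0.43 ± 0.066 (adjusted p = 3.06e-05), and in DMSO the difference was -0.02 ± 0.066 (adjusted p = 0.854). Glutathione synthetase (GSS), the second enzyme of the pathway, fell in sensitive cells by -0.28 ± 0.067 (adjusted p = 0.00228). Its lower level in resistant DMSO cells (-0.18 ± 0.067, adjusted p = 0.0328) was no longer called without any of 4 libraries (sensitive DMSO replicates 1 and 2, resistant DMSO replicates 2 and 3; adjusted p = 0.0617 to 0.134), nor with library totals alone (adjusted p = 0.204).

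The glutathione peroxidase family reduces peroxides, and the members tested took 4 different courses. GPX8, an endoplasmic reticulum member of the family, was higher in resistant cells. It had 133, 141 and 135 CPM in resistant GNE-7883 and 146, 139 and 145 CPM in resistant DMSO, against 61.3, 63.4 and 66.1 CPM in sensitive GNE-7883 and 88.3, 89 and 85.2 CPM in sensitive DMSO. Resistant libraries did not overlap sensitive ones, with differences of 1.10 ± 0.053 in GNE-7883 (adjusted p = 3.97e-11) and 0.71 ± 0.052 in DMSO (adjusted p = 1.36e-08). GPX8 fell with the drug in sensitive cells by -0.46 ± 0.053 (adjusted p = 1.73e-06).

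GPX1, the abundant cytosolic enzyme, was lower in resistant cells in both conditions. It had 166, 139 and 143 CPM in resistant GNE-7883 and 127, 158 and 122 CPM in resistant DMSO, against 298, 260.1 and 316 CPM in sensitive GNE-7883 and 242, 326 and 224 CPM in sensitive DMSO. The lines did not overlap, and the difference was -0.96 ± 0.13 in each condition (adjusted p = 7.63e-06 in GNE-7883 and 1.42e-05 in DMSO). The drug groups of each line overlapped. The sensitive drug change, 0.14 ± 0.13 (adjusted p = 0.364), was called only without sensitive DMSO replicate 2 (0.32, adjusted p = 0.00643).

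GPX4 detoxifies lipid peroxides and is the central inhibitor of ferroptosis. It was lower in resistant cells by -0.49 ± 0.082 in GNE-7883 (adjusted p = 8.22e-05) and -0.60 ± 0.083 in DMSO (adjusted p = 1.91e-05). Its levels were 160.1, 135 and 149.9 CPM in resistant GNE-7883 and 119, 127 and 111 CPM in resistant DMSO, against 204, 214 and 207 CPM in sensitive GNE-7883 and 164, 205 and 171 CPM in sensitive DMSO. The drug groups overlapped in sensitive cells and not in resistant cells. The rises with the drug, 0.32 ± 0.082 in resistant cells (adjusted p = 0.0228) and 0.21 ± 0.082 in sensitive cells (adjusted p = 0.0361), depended on single libraries. The resistant call was lost without replicate 1 or 3 of either resistant group (adjusted p = 0.0595 to 0.0834), and the sensitive call was lost without any 1 of its 6 libraries other than sensitive DMSO replicate 2 (adjusted p = 0.053 to 0.152). GPX3, a secreted enzyme at 2.14 ± 0.586 CPM in sensitive GNE-7883 against 0.597 ± 0.179 CPM in sensitive DMSO (SD, n = 3), rose there by 1.83 ± 0.29 (adjusted p = 5.77e-05).

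Of the glutathione transferases, which conjugate glutathione to electrophiles, MGST2 and MGST3 rose and GSTP1 fell with the drug in sensitive cells. GSTP1 had 345, 286 and 325 CPM in resistant GNE-7883 and 282, 333 and 272 CPM in resistant DMSO, against 345, 357 and 361 CPM in sensitive GNE-7883 and 412, 520.4 and 409.6 CPM in sensitive DMSO. The sensitive DMSO libraries were the 3 highest. It fell in sensitive cells by -0.34 ± 0.096 (adjusted p = 0.00666), and in DMSO resistant cells were lower by -0.60 ± 0.096 (adjusted p = 8.31e-05).

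The microsomal enzyme MGST3 had 29.7, 27.8 and 29.3 CPM in resistant GNE-7883 and 26.4, 25 and 23.4 CPM in resistant DMSO, against 32.7, 38 and 36.4 CPM in sensitive GNE-7883 and 21.6, 28.4 and 20.1 CPM in sensitive DMSO. Its rise of 0.61 ± 0.10 in sensitive cells (adjusted p = 0.000106) left those 2 groups without overlap. Between the lines in DMSO the difference of 0.09 ± 0.10 (adjusted p = 0.485) was 0.26 (adjusted p = 0.00622) without sensitive DMSO replicate 2. MGST2 rose by 1.06 ± 0.21 (adjusted p = 0.000392), to 1.82 ± 0.133 CPM in sensitive GNE-7883 against 0.87 ± 0.13 CPM in sensitive DMSO (SD, n = 3). GSTM3 was lower in resistant cells in both conditions, by -0.57 ± 0.081 in GNE-7883 (adjusted p = 1.44e-05) and -0.59 ± 0.08 in DMSO (adjusted p = 1.63e-05).

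Of the 5 tested genes of the thioredoxin and peroxiredoxin group, 4 fell with the drug in sensitive cells. PRDX6 (chr1:173477266-173488807, plus strand), a peroxidase that uses glutathione and repairs oxidised phospholipids, had the largest fall. It had 201, 208 and 206 CPM in resistant GNE-7883 and 238, 237 and 235 CPM in resistant DMSO, against 276, 294 and 285 CPM in sensitive GNE-7883 and 614, 713 and 603 CPM in sensitive DMSO. The 4 groups did not overlap, and sensitive DMSO stood far above the rest. In sensitive cells it fell by -1.18 ± 0.061 (adjusted p = 1.75e-10), 2.26-fold. In resistant cells the fall was -0.21 ± 0.06 (adjusted p = 0.0418), a call lost on leaving out any 1 of the 6 resistant libraries (adjusted p = 0.0696 to 0.152) and with limma on RPKM (adjusted p = 0.0685 and 0.0689). The responses differed by 0.97 ± 0.085 (adjusted p = 3.59e-07). Resistant cells were lower by -0.47 ± 0.06 in GNE-7883 (adjusted p = 4.17e-06) and by -1.44 ± 0.061 in DMSO (adjusted p = 1.7e-11).

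TXNRD1, the cytosolic enzyme that reduces thioredoxin with NADPH, was higher in resistant cells. It had 2855, 2969 and 2890.3 CPM in resistant GNE-7883 and 3449, 3266 and 3353 CPM in resistant DMSO, against 1988, 2039 and 2006 CPM in sensitive GNE-7883 and 2565, 2235 and 2566 CPM in sensitive DMSO. The groups did not overlap, and the differences between lines were 0.53 ± 0.053 in GNE-7883 (adjusted p = 2.77e-07) and 0.45 ± 0.053 in DMSO (adjusted p = 3.3e-06). With the drug it fell by -0.21 ± 0.053 in resistant cells (adjusted p = 0.0211) and by -0.29 ± 0.053 in sensitive cells (adjusted p = 0.000224). The resistant call was lost without any 1 of the 6 resistant libraries other than resistant DMSO replicate 2 (adjusted p = 0.0521 to 0.149), and with limma on RPKM (adjusted p = 0.0604 and 0.0614). The test of the difference gave 0.08 ± 0.075 (adjusted p = 0.441), and 0.15 (adjusted p = 0.023) without sensitive DMSO replicate 2.

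Thioredoxin itself (TXN) fell in sensitive cells by -0.50 ± 0.083 (adjusted p = 8.01e-05), to 72.6, 77.4 and 72.7 CPM in GNE-7883 against 94.3, 124 and 96.9 CPM in DMSO. The peroxiredoxin PRDX1 fell by -0.27 ± 0.061 (adjusted p = 0.00151). PRDX1 and PRDX2, both cytosolic peroxidases reduced by thioredoxin, were lower in resistant cells: PRDX1 by -0.37 ± 0.061 in GNE-7883 and -0.60 ± 0.061 in DMSO, and PRDX2 by -0.45 ± 0.096 and -0.34 ± 0.097 (adjusted p = 7.24e-05, 6.89e-07, 0.000767 and 0.00886). TXN is a gene with expressed pseudogene copies, which held 17.9% of the reads given to it and its copies together.

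**Figure D4:**
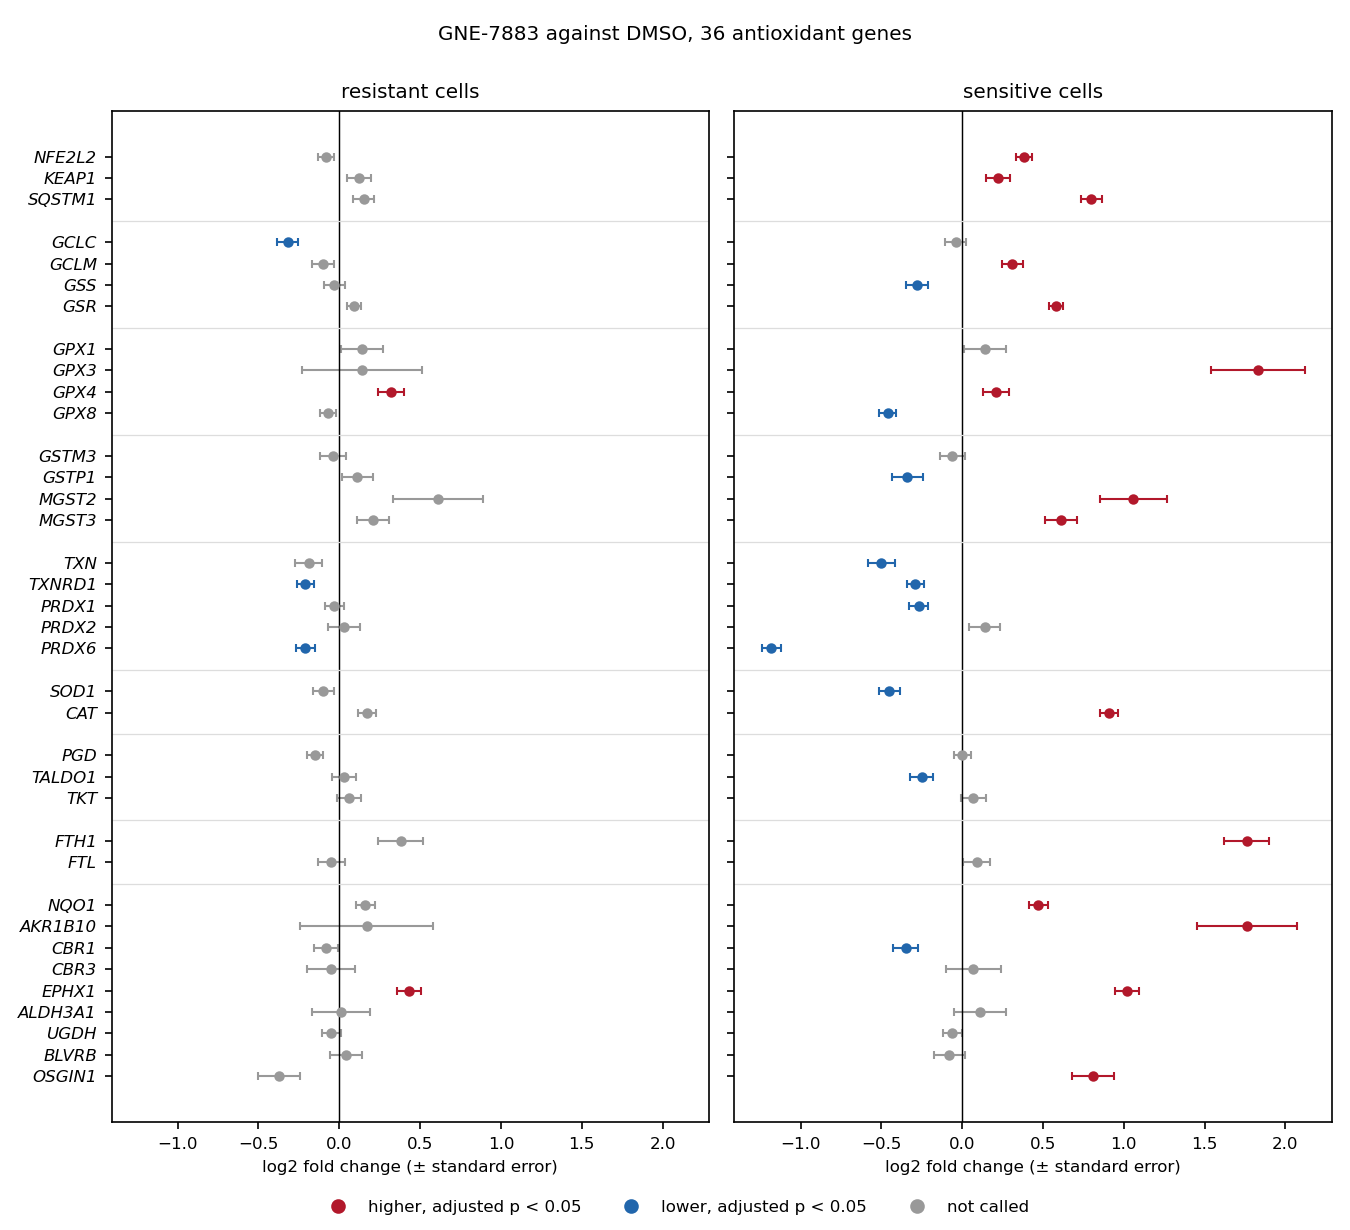
Log2 fold change of GNE-7883 against DMSO (horizontal axes, ± SE) of the 36 genes in resistant (left) and sensitive (right) cells, grouped by role, with called genes in red (higher) or blue (lower). In resistant cells 2 genes are red and 3 blue, and in sensitive cells 15 are red and 10 blue.

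Catalase and superoxide dismutase 1, which act in sequence on superoxide and hydrogen peroxide, moved in opposite directions in sensitive cells. CAT (chr11:34438925-34472062, plus strand) had 36.2, 36.9 and 36.3 CPM in resistant GNE-7883 and 34.5, 30.9 and 31.7 CPM in resistant DMSO, against 69.5, 72.8 and 73.1 CPM in sensitive GNE-7883 and 38.4, 38.2 and 37.7 CPM in sensitive DMSO. The sensitive GNE-7883 libraries lay above every other library, and the 4 groups did not overlap. Resistant cells were lower by -0.98 ± 0.056 in GNE-7883 (adjusted p = 3.49e-10) and by -0.23 ± 0.057 in DMSO (adjusted p = 0.00277). Its change with the drug was 0.91 ± 0.056 in sensitive cells (adjusted p = 1.29e-09) and 0.17 ± 0.057 in resistant cells (adjusted p = 0.0721, or 0.0423 in DESeq2). The responses differed by -0.74 ± 0.079 (adjusted p = 2.9e-06). SOD1 fell in sensitive cells by -0.45 ± 0.066 (adjusted p = 2.49e-05), to 180.1, 190.4 and 191 CPM in GNE-7883 against 238, 288 and 241 CPM in DMSO.

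Of the 3 pentose phosphate enzymes, a source of NADPH, 1 was called with the drug in sensitive cells. TALDO1 fell in sensitive cells by -0.25 ± 0.072 (adjusted p = 0.00765), while PGD and TKT gave 0.00 ± 0.052 and 0.07 ± 0.077 there (adjusted p = 0.946 and 0.424). TKT, or transketolase, was lower in resistant cells in both conditions. It had 379, 323 and 355 CPM in resistant GNE-7883 and 328, 374 and 313 CPM in resistant DMSO, against 545, 536 and 566 CPM in sensitive GNE-7883 and 499.6, 573 and 492 CPM in sensitive DMSO. The lines did not overlap (-0.64 ± 0.077 in GNE-7883 and -0.62 ± 0.077 in DMSO, adjusted p = 2.32e-06 and 5.48e-06). PGD was 0.13 ± 0.052 higher in resistant DMSO cells (adjusted p = 0.0564), and 0.18 (adjusted p = 0.00156) without sensitive DMSO replicate 2.

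The ferritin subunits, which form the iron storage shell, differed in their drug response. FTH1 (chr11:61959718-61967660, minus strand) had 57.6, 43 and 47.7 CPM in resistant GNE-7883 and 34.5, 39.7 and 40 CPM in resistant DMSO, against 194, 182 and 209.5 CPM in sensitive GNE-7883 and 51.8, 74.1 and 47.3 CPM in sensitive DMSO. Sensitive GNE-7883 libraries alone were far above the rest, 3.38-fold over sensitive DMSO in the means. The drug change was 1.76 ± 0.14 in sensitive cells (adjusted p = 2.52e-08) and 0.38 ± 0.14 in resistant cells (adjusted p = 0.108, or 0.0497 in DESeq2 and 1.32e-05 without a filter on low counts), a difference of -1.38 ± 0.20 (adjusted p = 5e-05). Resistant cells were lower by -1.98 ± 0.14 in GNE-7883 (adjusted p = 4.5e-09) and by -0.60 ± 0.14 in DMSO (adjusted p = 0.00196). The level of FTH1 is uncertain: 62.4% of its exon bases overlap BEST1 on the opposite strand, which the kit cannot separate, and 25 named copies exist. BEST1 was counted at 3.15 CPM in resistant GNE-7883, 3.57 in resistant DMSO, 7.81 in sensitive GNE-7883 and 2.85 in sensitive DMSO, and rose in sensitive cells by 1.46 ± 0.11 (adjusted p = 1.37e-08).

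FTL had 2392, 2122 and 2339 CPM in resistant GNE-7883 and 2360.1, 2506 and 2251 CPM in resistant DMSO, against 3543, 3953 and 3779.5 CPM in sensitive GNE-7883 and 3260.5, 4130 and 3228 CPM in sensitive DMSO. Resistant libraries were all below sensitive ones, by -0.72 ± 0.083 in GNE-7883 (adjusted p = 1.52e-06) and -0.58 ± 0.083 in DMSO (adjusted p = 2.79e-05). With the drug the sensitive groups overlapped (0.09 ± 0.083, adjusted p = 0.39), and the change was 0.21 (adjusted p = 0.00207) without sensitive DMSO replicate 2.

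Among the 9 genes for quinone, carbonyl and other detoxification, EPHX1, NQO1, OSGIN1 and AKR1B10 rose and CBR1 fell with the drug in sensitive cells. NQO1 (chr16:69706996-69726951, minus strand), a quinone reductase and the standard readout of NRF2, had 222, 227 and 226 CPM in resistant GNE-7883 and 204, 205 and 195 CPM in resistant DMSO, against 586, 623 and 598 CPM in sensitive GNE-7883 and 422, 479 and 408 CPM in sensitive DMSO. All resistant libraries were below all sensitive ones, at 2.68-fold lower means under the drug and 2.17-fold lower means in DMSO. The differences were -1.42 ± 0.06 (adjusted p = 8.38e-12) and -1.12 ± 0.06 (adjusted p = 2.82e-10). With the drug NQO1 rose in sensitive cells by 0.47 ± 0.059 (adjusted p = 5.13e-06), and the resistant change was 0.16 ± 0.059 (adjusted p = 0.111, or 0.0189 with the resistant libraries fitted alone). The responses differed by -0.31 ± 0.083 (adjusted p = 0.00922).

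EPHX1 (chr1:225810092-225845563, plus strand), the microsomal epoxide hydrolase, rose with the drug in both lines. It had 33.7, 32 and 35.1 CPM in resistant GNE-7883 and 26.1, 26.4 and 22.3 CPM in resistant DMSO, against 93.8, 92.3 and 96.1 CPM in sensitive GNE-7883 and 44.3, 50.4 and 44.1 CPM in sensitive DMSO. The 4 groups did not overlap. Its rise was 0.43 ± 0.075 in resistant cells (adjusted p = 0.00168) and 1.02 ± 0.072 in sensitive cells (adjusted p = 6.61e-09), and the responses differed by -0.60 ± 0.10 (adjusted p = 0.000322). Resistant cells were lower by -1.49 ± 0.073 in GNE-7883 (adjusted p = 5.5e-11) and by -0.89 ± 0.074 in DMSO (adjusted p = 6.5e-08).

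OSGIN1, an oxidative stress-induced growth inhibitor, was the 1 gene of the 36 called higher in resistant cells in one condition and lower in the other. It had 9.32, 7.97 and 8 CPM in resistant GNE-7883 and 8.91, 13.7 and 9.94 CPM in resistant DMSO, against 12.4, 13.4 and 14.1 CPM in sensitive GNE-7883 and 7.35, 8.21 and 7.23 CPM in sensitive DMSO. The lines did not overlap in either condition: the difference was -0.66 ± 0.13 in GNE-7883 (adjusted p = 0.000408) and 0.52 ± 0.13 in DMSO (adjusted p = 0.00423). It rose in sensitive cells by 0.81 ± 0.13 (adjusted p = 7.88e-05), beside -0.37 ± 0.13 in resistant cells (adjusted p = 0.0989, or 0.0331 without resistant DMSO replicate 1), and the responses differed by -1.18 ± 0.19 (adjusted p = 0.000148).

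The remaining detoxifying genes had no common direction between the lines, and CBR1 and UGDH were called in neither condition. BLVRB, biliverdin reductase B, was lower by -0.50 ± 0.098 in GNE-7883 and -0.62 ± 0.098 in DMSO (adjusted p = 0.00036 and 6.66e-05), with 73, 61.2 and 66.2 CPM in resistant GNE-7883 and 61.2, 73.1 and 59.9 CPM in resistant DMSO, against 94.5, 92.3 and 95.8 CPM in sensitive GNE-7883 and 91.6, 117 and 91.4 CPM in sensitive DMSO. The carbonyl reductase CBR3 was higher by 0.55 ± 0.16 and 0.67 ± 0.16 (adjusted p = 0.007 and 0.00231), at no more than 5.09 CPM in any library. In GENCODE 42.2% of its exon bases overlap its antisense gene CBR3-AS1, which was itself higher in resistant cells by 1.10 ± 0.38 in GNE-7883 (adjusted p = 0.0204) and 1.26 ± 0.40 in DMSO (adjusted p = 0.0161). Reads of the 2 genes cannot be told apart without strand. CBR3-AS1 averaged 0.518 CPM in resistant GNE-7883 and 0.456 in resistant DMSO, against 0.237 in sensitive GNE-7883 and 0.189 in sensitive DMSO. AKR1B10 rose in sensitive cells by 1.76 ± 0.31 (adjusted p = 0.000132), to 0.873 ± 0.249 CPM in GNE-7883 against 0.255 ± 0.035 CPM in DMSO (SD, n = 3), where reads shared with its close paralogue AKR1B15 are possible. UGDH, which supplies UDP-glucuronate, ran from 32.6 to 37.8 CPM over all 12 libraries, and its largest change in any comparison was -0.06 ± 0.06 (adjusted p = 0.407).

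**Figure D5:**
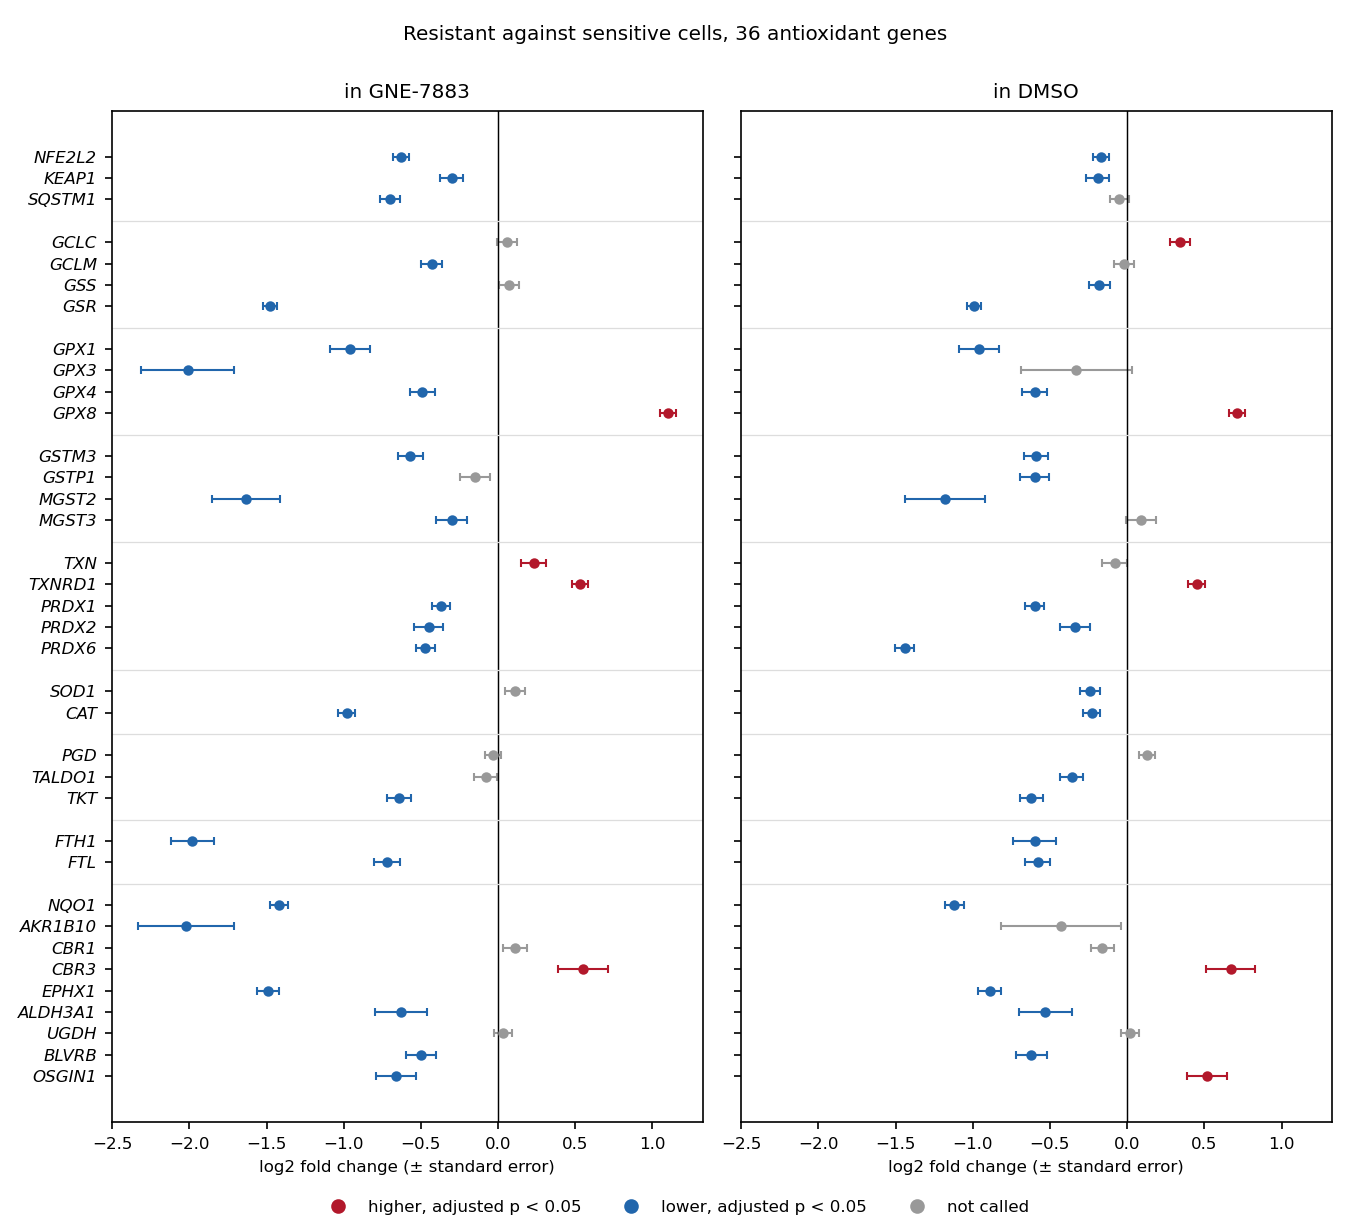
Log2 fold change of resistant against sensitive cells (horizontal axes, ± SE) of the 36 genes in GNE-7883 (left) and in DMSO (right), grouped by role, with called genes in red (higher) or blue (lower). In GNE-7883 24 genes are blue and 4 red, in DMSO 22 are blue and 5 red, and GPX8, TXNRD1 and CBR3 are red in both.

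Considering both conditions, 18 of the 36 genes were called lower in resistant cells in GNE-7883 and in DMSO: NFE2L2, KEAP1, GSR, GPX1, GPX4, GSTM3, MGST2, PRDX1, PRDX2, PRDX6, CAT, TKT, FTH1, FTL, NQO1, EPHX1, ALDH3A1 and BLVRB. GPX8, TXNRD1 and CBR3 were called higher in both. Of all 18035 genes tested, 17.3% were called lower in both conditions and 16.9% higher in both. Of the 18, the DMSO calls of NFE2L2 and KEAP1 were lost on leaving out single libraries as given above. That of ALDH3A1 was lost without sensitive DMSO replicate 2 or 3 or resistant DMSO replicate 2 or 3 (adjusted p = 0.0504 to 0.0835). PGD, CBR1 and UGDH were called in neither condition, though CBR1 was called lower in DMSO without sensitive DMSO replicate 3 or resistant DMSO replicate 1 (adjusted p = 0.042 and 0.0417). The 2 line comparisons use different libraries, as do the 2 drug comparisons.

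Genes of the same pathways outside the 39 were read from 6 further lists, of which 86 of 102 genes were tested. In resistant against sensitive cells 26 were higher and 43 lower in GNE-7883 (30.2% and 50% of the 86, beside 30.7% and 31.1% of all genes), and 23 were higher and 33 lower in DMSO (26.7% and 38.4%, beside 24.2% and 24.4%). With the drug, 5 rose and 8 fell in resistant cells (5.81% and 9.3%, beside 5.25% and 3.97%), and 36 rose and 25 fell in sensitive cells (41.9% and 29.1%, beside 29.8% and 28.4%). The counts of each list that follow stand beside the same shares of all genes. The medians of the line differences were -0.20 in GNE-7883 and -0.11 in DMSO, beside -0.48 and -0.33 for the 36.

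Other NRF2 target genes (15 of 18 tested) gave 1 higher and 11 lower in resistant cells in GNE-7883, and 3 higher and 9 lower in DMSO. The drug raised 10 and lowered 1 in sensitive cells, and raised 3 and lowered 1 in resistant cells. The efflux pump gene ABCC3 averaged 8.72 ± 0.301 CPM in resistant GNE-7883 and 3.64 ± 0.194 CPM in resistant DMSO, against 48.6 ± 1.85 CPM in sensitive GNE-7883 and 9.57 ± 0.513 CPM in sensitive DMSO (SD, n = 3 each). Heme oxygenase 1 (HMOX1), which degrades heme, averaged 34.4 ± 0.95, 33.2 ± 3.64, 65.1 ± 3.28 and 23 ± 1.4 CPM in the same groups. It rose in sensitive cells by 1.50 ± 0.078 (adjusted p = 2.07e-10), and like OSGIN1 was lower in resistant cells in GNE-7883 (-0.92 ± 0.076, adjusted p = 3.24e-08) and higher in DMSO (0.53 ± 0.079, adjusted p = 3.64e-05). The heme transporter SLC48A1 was lower in resistant cells by -2.00 ± 0.066 in GNE-7883 (adjusted p = 4.62e-13) and -1.14 ± 0.066 in DMSO (adjusted p = 8.79e-10).

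The cystine importer SLC7A11, an NRF2 and ATF4 target that feeds glutathione synthesis, was higher in resistant cells in both conditions. It averaged 73.8 ± 2.09 CPM in resistant GNE-7883 and 132 ± 7.86 CPM in resistant DMSO, against 40.7 ± 1.46 CPM in sensitive GNE-7883 and 51.9 ± 12.1 CPM in sensitive DMSO (SD, n = 3 each). The differences were 0.86 ± 0.12 in GNE-7883 (adjusted p = 1.19e-05) and 1.35 ± 0.12 in DMSO (adjusted p = 1.27e-07). With the drug it fell by -0.84 ± 0.12 in resistant cells (adjusted p = 0.000249) and by -0.35 ± 0.12 in sensitive cells (adjusted p = 0.0198). GCLC had the same 2 calls, higher in resistant DMSO cells and lower with the drug in resistant cells, and both of these comparisons use the resistant DMSO libraries.

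Among 13 NRF2 partners and regulators, 7 were higher and 3 lower in resistant cells in GNE-7883, and 8 higher and 2 lower in DMSO. The small MAF gene MAFF averaged 21.1 ± 0.279 CPM in resistant GNE-7883 and 30.2 ± 1.37 CPM in resistant DMSO, against 12.1 ± 0.955 CPM in sensitive GNE-7883 and 12.8 ± 0.795 CPM in sensitive DMSO (SD, n = 3 each). The leucine zipper gene NFE2L1, a relative of NFE2L2, rose in sensitive cells by 0.81 ± 0.048 (adjusted p = 8.95e-10), and in resistant cells its change was 0.04 ± 0.048 (adjusted p = 0.729). SESN2, a stress-induced sestrin, was higher in resistant cells by 0.70 ± 0.062 in GNE-7883 (adjusted p = 7.25e-08) and 0.84 ± 0.062 in DMSO (adjusted p = 1.3e-08).

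Of other glutathione genes (17 of 24 tested), 4 were higher and 9 lower in resistant cells in GNE-7883, and 3 higher and 7 lower in DMSO. GGT5, a gamma-glutamyltransferase that cleaves extracellular glutathione conjugates, averaged 3.42 ± 0.35 CPM in resistant GNE-7883 and 1.13 ± 0.279 CPM in resistant DMSO, against 50.1 ± 1.54 CPM in sensitive GNE-7883 and 23.1 ± 3.26 CPM in sensitive DMSO (SD, n = 3 each). CHAC1, which degrades glutathione, rose in sensitive cells by 1.65 ± 0.11 (adjusted p = 5.95e-09) and fell in resistant cells by -0.70 ± 0.10 (adjusted p = 0.000392), a difference of -2.35 ± 0.15 (adjusted p = 1.9e-08). GLO1, which clears methylglyoxal with glutathione, fell by -0.32 ± 0.058 in resistant cells (adjusted p = 0.00223) and by -1.32 ± 0.061 in sensitive cells (adjusted p = 4.9e-11).

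Among the thioredoxin, glutaredoxin and superoxide genes outside the 39 (18 tested), the drug lowered 9 and raised 5 in sensitive cells. In resistant cells edgeR called 0 in either direction, with 3 higher and 2 lower at an unadjusted p under 0.05, and DESeq2 called 1 higher. TXNIP, which binds and inhibits thioredoxin, rose in sensitive cells by 1.31 ± 0.06 (adjusted p = 5.29e-11), and its resistant change was -0.02 ± 0.06 (adjusted p = 0.895). Of 11 other NADPH sources 3 rose and 7 fell with the drug in sensitive cells. The isocitrate dehydrogenase IDH1 was lower in resistant cells by -1.76 ± 0.053 in GNE-7883 (adjusted p = 1.73e-13) and -1.48 ± 0.053 in DMSO (adjusted p = 2.55e-12). Of 12 tested ferroptosis and NADPH oxidase genes, 2 were higher and 10 lower in resistant cells in GNE-7883, and 2 higher and 7 lower in DMSO. NCOA4, the receptor that delivers ferritin for degradation, averaged 611 ± 15.7 CPM in resistant GNE-7883 and 543 ± 15.4 CPM in resistant DMSO, against 1768 ± 46.6 CPM in sensitive GNE-7883 and 817 ± 61.4 CPM in sensitive DMSO (SD, n = 3 each). It rose in sensitive cells by 1.11 ± 0.056 (adjusted p = 1.24e-10), as FTH1 did.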

How the data were processed

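RNA sequencing of 12 libraries (4 groups of 3) was read from 2 tables. The authors deposited whole-number counts per Ensembl gene, not normalized, and also RPKM; this was used for levels between genes and for an alternative test. Per the labels' protocols, libraries came from total RNA with a kit that does not mark strand, and reads were single-end, 50 bases long. GSNAP, limma and GRCh38.p10 are named per the submitters' processing notes; for the counting tool and annotation: not given in the sources used here. edgeR 4.0.16 (R 4.3.3) tested the counts, with TMM scaling, filterByExpr (which kept 18035 genes), a quasi-likelihood model of all 12 libraries with the 4 groups as its means (8 residual degrees of freedom), and two-sided p-values adjusted by Benjamini-Hochberg over all genes in each of 5 comparisons. SE is the log2 fold change divided by the square root of F. Coordinates are from GENCODE release 29 on GRCh38, and promoter sequences from RefSeq. limma 3.58.1 (on log2 RPKM plus 0.5 or 0.1), DESeq2 1.42.0, other scalings and filters, the groups compared alone, a replicate block and leaving out each library were alternatives. Limits from counts cover counting error only, as reads lack molecular identifiers.

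The genes, the lists and the naming rule were chosen with earlier results of these data known. Named with full values are called genes with an absolute log2 fold change of at least 0.5 and 5 CPM in a group compared (at most 8 per direction), NFE2L2, KEAP1, NQO1, GCLC and GCLM always, and up to 3 called genes per list, direction and comparison; not all that qualify are printed, and genes outside the rule are named to account for the group. The marker lists were 12 mesothelial, 9 epithelial, 9 mesenchymal, 11 blood cell, 7 endothelial and 8 alveolar and airway genes. SOD2 on one list was matched to no identifier.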

Additional observations from a re-analysis of the deposited data

Results flagged for a closer look

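For 20 genes the GNE-7883 response differed between the lines in edgeR's quasi-likelihood test of the difference itself (Benjamini-Hochberg adjusted p under 0.05; log2 response in resistant minus sensitive cells). For 13 the resistant response was lower: GPX3 -1.69, AKR1B10 -1.59, FTH1 -1.38, OSGIN1 -1.18, CAT -0.74, SQSTM1 -0.65, EPHX1 -0.60, GSR -0.48, NFE2L2 -0.46, GCLM -0.41, MGST3 -0.40, NQO1 -0.31 and GCLC -0.28. For 7 it was higher: PRDX6 0.97, GSTP1 0.45, GPX8 0.39, SOD1 0.34, TXN 0.31, TALDO1 0.28 and PRDX1 0.23. Of all genes tested, 16.7% had a lower and 19.0% a higher resistant response.

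On leaving out 1 library at a time, 7 of these calls were lost at least once. MGST3 was lost without any library except sensitive DMSO replicate 2 and sensitive GNE-7883 replicate 1 (adjusted p = 0.0582 to 0.137), and GCLC without any except sensitive DMSO replicates 2 and 3 and sensitive GNE-7883 replicate 2 (adjusted p = 0.0502 to 0.158). AKR1B10 was lost without sensitive DMSO replicate 2, sensitive GNE-7883 replicate 2, resistant DMSO replicate 1 or resistant GNE-7883 replicate 1 or 2 (adjusted p = 0.0509 to 0.165), and GPX3 without resistant DMSO replicate 2 (adjusted p = 0.0534). TXN was lost without any sensitive GNE-7883 library, resistant DMSO replicate 2 or resistant GNE-7883 replicate 2 (adjusted p = 0.051 to 0.0943). PRDX1 was lost without any sensitive GNE-7883 library or resistant GNE-7883 replicate 2 (adjusted p = 0.0581 to 0.0942), and TALDO1 without sensitive GNE-7883 replicate 1 or 3 (adjusted p = 0.0789 to 0.0912). limma on RPKM also lost MGST3, TXN, PRDX1 and TALDO1 (adjusted p = 0.0548 to 0.0759), DESeq2 lost AKR1B10 (adjusted p = 0.0599), and the fit without a filter lost GCLC (adjusted p = 0.241).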

How the results depend on the processing

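Over all alternatives 2853 values of the 36 genes were recomputed: 2682 kept their side of the threshold, 115 calls were lost, 56 were gained, and 0 called values changed sign. The counts of genes that rose (2) and fell (3) with the drug in resistant cells were the least stable. With only the groups compared they were 5 and 5, and DESeq2 gave 4 that rose. limma on RPKM gave 1 that fell at either pseudocount. Leaving out 1 library gave 1 to 3 that rose and 0 to 2 that fell; the 0 came without resistant GNE-7883 replicate 1. The count of genes with a higher resistant response (7) was 4 with limma at either pseudocount and 9 with DESeq2. It was 4 to 9 on leaving out 1 library, the 4 without sensitive GNE-7883 replicate 1 or 3. The other counts moved by at most 1.5 times. The 4 genes higher in resistant cells in GNE-7883 were 6 with library totals alone and with only the groups compared. On leaving out 1 library, in sensitive cells 13 to 18 rose and 10 to 10 fell; resistant cells had 5 to 7 higher and 19 to 22 lower in DMSO, and 3 to 4 higher and 23 to 24 lower in GNE-7883; a lower resistant response was seen for 10 to 14.

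Libraries with the same replicate number did not deviate together (correlations -0.119 to 0.18, against -0.159 to 0.109 for different numbers). With a replicate block 178 of 180 values, called or not, kept their side of the threshold. The calls of KEAP1 between lines in DMSO (adjusted p = 0.0604) and PRDX1 in the difference of responses (adjusted p = 0.0528) were lost. Scaling by library totals alone shifted the median of all genes by 0.07 on the log2 scale between lines in DMSO. GPX2, MGST1 and SRXN1 did not pass the filter on low counts and were not tested, and for SRXN1 the overlap with AL121758.1 may bear on its count.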
